A study of Homo sapiens with 8 samples.

Results

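Young L1 peaks are peaks called in mTOR chromatin immunoprecipitation (ChIP) libraries of LNCaP cells, with their centre in a copy of L1HS or of L1PA2 to L1PA8. These are the primate-era subfamilies of the LINE-1 retrotransposon. The peaks were chosen by their repeat name in the authors' annotation of each peak list, on chromosomes 1 to 22, X and Y. Any peak annotated as a promoter was left out. The rule found 17580 such peaks among 125713 peaks in the 4 lists. They numbered 5671 of 39570 peaks in shFoxA1 R1881, 4616 of 35121 in shFoxA1 EtOH, 3614 of 26074 in shEV R1881 and 3679 of 24948 in shEV EtOH.

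LNCaP is an established, androgen-responsive human prostate cancer line. The cells carried either an shRNA that knocks down FoxA1, labelled shFoxA1, or the empty shRNA vector, labelled shEV; FoxA1 is a pioneer factor, which opens closed chromatin. All were held in medium with 2% charcoal-stripped serum for 48 h, and then received either 10 nM of the synthetic androgen R1881 or its vehicle, ethanol (EtOH) at 0.1%, for 24 h. Each of the 4 combinations is 1 mTOR library with no replicate, the matching input libraries were not analysed here, and the read depth behind each list is unknown. The degree of FoxA1 loss cannot be read from peak lists.

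LINE-1, or L1, is the only autonomous retrotransposon still active in the human genome. A full-length copy carries a GC-rich and CpG-rich 5′ region with an internal promoter, an RNA-binding protein gene and a gene for the endonuclease and reverse transcriptase, and most copies have lost their 5′ part. L1HS is the youngest, human-specific subfamily, and in the L1PA series a higher number means an older subfamily. In most somatic cells these copies are held silent by DNA methylation and by repressors such as KRAB zinc-finger proteins and the HUSH complex, while in many cancers part of that methylation is lost. Copies of these subfamilies are nearly alike in sequence, so a short read may match many of them. The sources used here do not say how such reads were placed, and the assignment of a peak to a single copy is therefore uncertain.

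Young L1 peaks made up a similar share of each list. They were 14.3% of the peaks in shFoxA1 R1881 (95% exact binomial interval 14.0 to 14.7), 13.1% in shFoxA1 EtOH (12.8 to 13.5), 13.9% in shEV R1881 (13.4 to 14.3) and 14.7% in shEV EtOH (14.3 to 15.2). These intervals, like all those below, cover counting error only. Older L1 peaks, those with any other L1 name, took 15.4% of shFoxA1 R1881, 17.8% of shFoxA1 EtOH, 19.8% of shEV R1881 and 20.7% of shEV EtOH. The young share therefore stayed within a narrow span in which its order did not follow list length, while the older share was lowest in the longest list.

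Most young L1 peaks lay in the middle of the age series. L1PA5 had 1155 peaks in shFoxA1 R1881, 926 in shFoxA1 EtOH, 720 in shEV R1881 and 755 in shEV EtOH. L1PA3 had 1084, 943, 670 and 727 peaks in those lists in the same order. L1HS, the only subfamily that still moves, had 21 peaks in shFoxA1 R1881, 17 in shFoxA1 EtOH, 16 in shEV R1881 and 12 in shEV EtOH. Every subfamily had its highest count in shFoxA1 R1881, which is also the longest list. Just outside the name rule, L1PA8A had 80 peaks in shFoxA1 R1881, 71 in shFoxA1 EtOH, 58 in shEV R1881 and 50 in shEV EtOH. L1PA10 had 168, 148, 113 and 130 in that order. No promoter peak carried a young L1 name in any of the 4 lists.

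**Figure D1:**
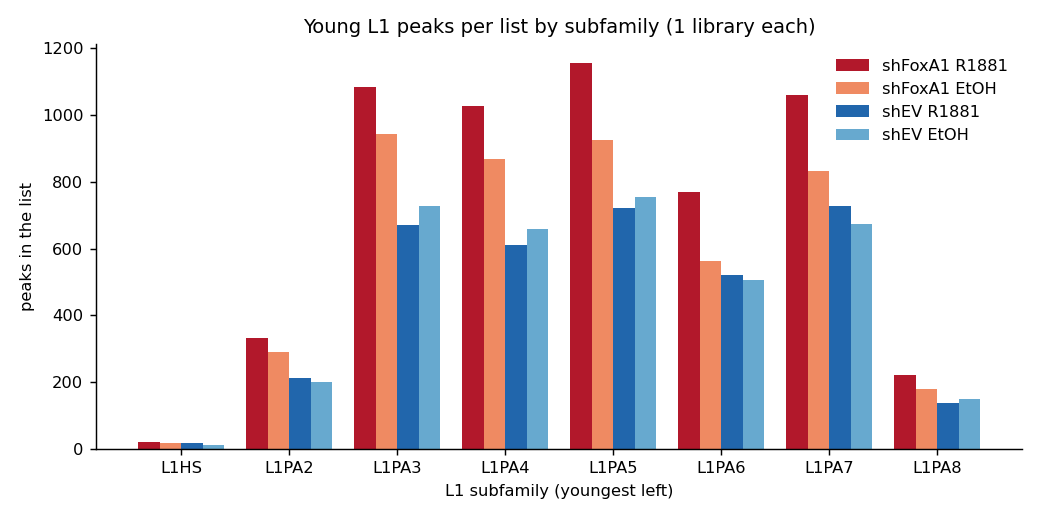
Number of young L1 peaks (vertical axis) in each mTOR peak list by L1 subfamily, youngest at the left, with a bar for each of the 4 libraries. L1PA3, L1PA4, L1PA5 and L1PA7 hold the tallest bars, L1HS stays at 12 to 21 peaks, and the shFoxA1 R1881 bar is the highest in every subfamily.

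Within each list the young L1 peaks were of low to middle rank. Peaks were ranked inside their own list by the score that the authors deposited. Of the young L1 peaks, 10.7% (9.89 to 11.5) were among the 20% highest-scoring peaks of shFoxA1 R1881, 8.73% (7.93 to 9.58) of shFoxA1 EtOH, 8.91% (8.001 to 9.89) of shEV R1881 and 7.96% (7.11 to 8.89) of shEV EtOH. All 4 values lie below the 20% that defines the class. Older L1 peaks reached it in 22.2%, 22.3%, 20.5% and 20.5% of cases in the same order of lists, and ERVK peaks, from the endogenous retrovirus family that holds the youngest human copies, in 49.4%, 49.5%, 42.3% and 44.7%. SVA retroposon peaks reached it in 15.1%, 15.9%, 7.14% and 9.24%, so in the shEV lists they lay near young L1 peaks. Young L1 peaks were not concentrated at the bottom of the ranking either. The lowest 20% held 18.3% of them in shFoxA1 R1881, 20.4% in shFoxA1 EtOH, 21.0% in shEV R1881 and 22.2% in shEV EtOH.

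In shFoxA1 R1881, 13.8% (11.4 to 16.4) of L1PA6 peaks and 9.31% (6.41 to 13.0) of L1PA2 peaks were among the 20% highest. In shEV EtOH L1PA6 had 10.1% (7.58 to 13.0) and L1PA2 had 7.54% (4.28 to 12.1). The intervals of these subfamilies overlap in both lists, and the difference between them was not tested.

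**Figure D2:**
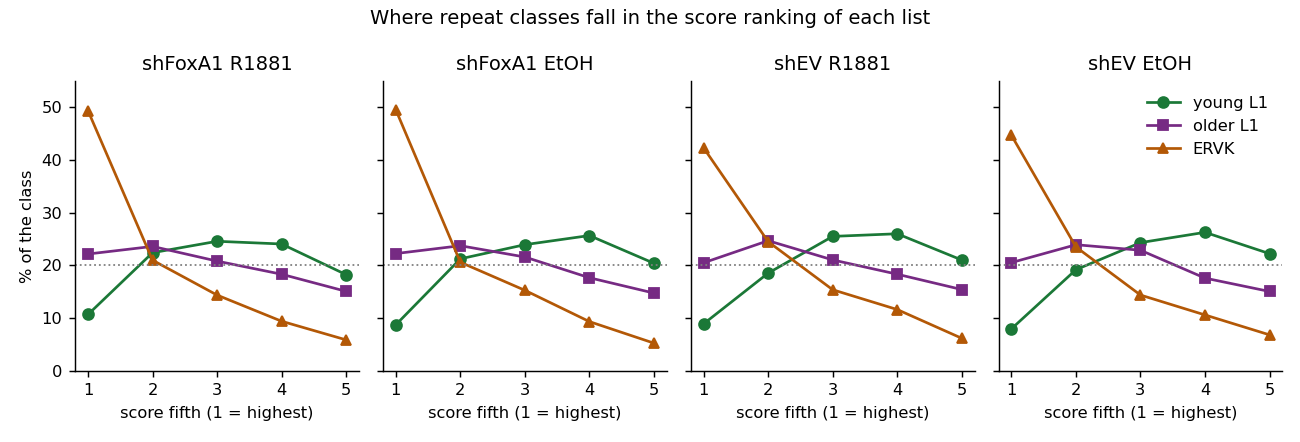
Share of each repeat class (vertical axis, %) in each 20% band of its list's score ranking, highest band at the left, with 1 panel per library. The young L1 line starts at 7.96 to 10.7% in the highest band, under the dotted line at 20% that an even spread would give, and peaks in the middle bands, while the ERVK line starts at 42.3 to 49.5% and falls.

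Some of the highest-scoring members recurred across lists. An L1PA7 copy 89 kb from the start of LINC02285, a long non-coding RNA gene (chr14:101209296-101210436 in shFoxA1 EtOH, hg38), had a score of 1971 in shFoxA1 EtOH, 1116 in shEV R1881 and 1290 in shEV EtOH, the highest of the young L1 peaks in each of these lists. In shFoxA1 R1881 the overlapping peak scored 1939, but its centre lay outside any named repeat, so the rule does not count it there. The peak is thus present in all 4 lists, with a change of name and not of presence.

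In shFoxA1 R1881 the highest young L1 score, 1129, belonged to a peak of 6400 bp named L1PA4 (chr21:8996934-9003333), nearest to the microRNA gene MIR10396A, and this peak scored 937 in shEV EtOH. Next came an L1PA7 peak with a score of 869 at -35.0 kb from BTC, which encodes betacellulin, a ligand of the EGF receptor family, and an L1PA7 peak with 775 near LINC00423. High scorers elsewhere were an L1PA4 peak with 1377 at the pseudogene AKR1C8P and an L1PA7 peak with 892 near the pseudogene GSTM2P1, both in shFoxA1 EtOH. In shEV R1881 an L1PA6 peak with a score of 1099 lay at -28.9 kb from PARP14, which encodes an ADP-ribosyltransferase. These are single loci, and their scores say nothing of the subfamilies they belong to.

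Young L1 peaks were narrower, poorer in G and C and farther from transcription start sites than the lists as a whole. Their median width was 407 bp in shFoxA1 R1881, 403 in shFoxA1 EtOH, 391 in shEV R1881 and 397 in shEV EtOH, against 470, 471, 445 and 452 bp over all peaks in the same order. Their median GC content was 39.5% in shFoxA1 R1881 and 39.2% in shEV EtOH, against 44.8% and 42.6% over all peaks of those lists. Older L1 peaks were lower still, at 35.7% and 35.0%. Introns held 40.7% of young L1 peaks in shFoxA1 R1881, 41.2% in shFoxA1 EtOH, 41.2% in shEV R1881 and 40.1% in shEV EtOH, and the rest were intergenic. Over all peaks introns held less, 38.2%, 36.5%, 37.4% and 35.5% in the same order. Within 50 kb of a transcription start site (TSS) lay 43.3% of young L1 peaks in shFoxA1 R1881 and 42.8% in shEV EtOH, against 64.8% and 60.1% of all peaks. Older L1 peaks lay between, at 53.0% and 50.7%.

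Their spread over chromosomes also differed from that of the lists. Chromosome 3 held 10.4% of the young L1 peaks in shFoxA1 R1881, 10.7% in shFoxA1 EtOH, 11.2% in shEV R1881 and 11.6% in shEV EtOH, against 7.64%, 7.70%, 7.87% and 7.94% of all peaks. Gene-dense chromosome 19 held 0.582%, 0.715%, 0.332% and 0.625% of them in the same order, against 4.96%, 5.02%, 4.79% and 4.91% of all peaks. The X chromosome, rich in L1 sequence, held 76 young L1 peaks in shFoxA1 R1881, 50 in shFoxA1 EtOH, 35 in shEV R1881 and 42 in shEV EtOH, or 1.34%, 1.08%, 0.968% and 1.14% of them. Over all peaks the X chromosome held 1.11%, 1.26%, 0.997% and 1.18%, so young L1 peaks lay slightly above all peaks there in shFoxA1 R1881 and slightly below them in the other 3 lists. The number of copies of each subfamily per chromosome, which sets what an even spread would give, was not analysed here.

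Some young L1 peaks lay close together. Within 6 kb, about the length of a full L1 element, 466 pairs of neighbouring young L1 peaks lay in shFoxA1 R1881, 343 in shFoxA1 EtOH, 223 in shEV R1881 and 235 in shEV EtOH. Of these pairs 404, 283, 187 and 206 had the same subfamily name. Members of such pairs were 15.8% of young L1 peaks in shFoxA1 R1881, 14.0% in shFoxA1 EtOH, 11.9% in shEV R1881 and 12.04% in shEV EtOH. Whether both peaks of a pair lie in the same copy could not be read, but they share a locus and are not independent counts.

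A small group of young L1 peaks had over 50% G and C. They numbered 193 in shFoxA1 R1881, 182 in shFoxA1 EtOH, 64 in shEV R1881 and 68 in shEV EtOH, which is 3.403%, 3.94%, 1.77% and 1.85% of the young L1 peaks. Over all peaks the share above 50% was 34.5% in shFoxA1 R1881, 37.0% in shFoxA1 EtOH, 26.3% in shEV R1881 and 29.3% in shEV EtOH, so the higher share with the FoxA1 hairpin was not confined to L1. The GC-rich peaks were most frequent in the youngest subfamilies. In L1PA2 they were 10.2% of peaks in shFoxA1 R1881, 12.8% in shFoxA1 EtOH, 6.64% in shEV R1881 and 7.54% in shEV EtOH, against 0.755%, 0.601%, 0.138% and 0.446% in L1PA7. L1HS had 6, 3, 2 and 1 such peaks in the same order of lists. Their scores were low: 7 of them in shFoxA1 R1881 and 2 in shEV R1881 were among the 20% highest of their list, and none in the EtOH lists. Where in the L1 element these peaks lie could not be read, since no genome sequence was used.

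**Figure D3:**
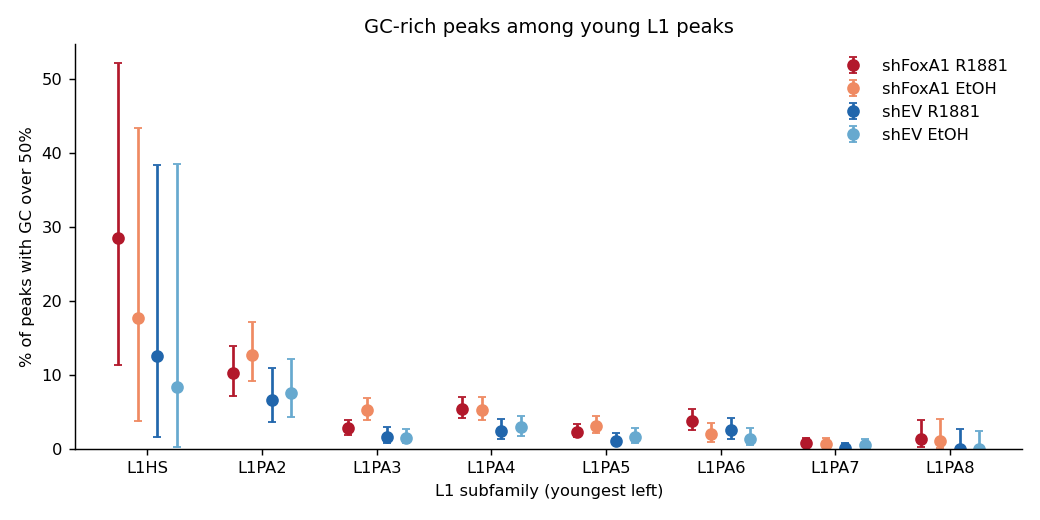
Share of young L1 peaks with over 50% G and C (vertical axis, %) by subfamily, youngest at the left, for the 4 libraries, with 95% exact binomial intervals. L1PA2 lies at 6.64 to 12.8% and L1PA7 at 0.138 to 0.755%, the L1HS intervals are wide because they rest on 12 to 21 peaks, and both shFoxA1 points lie above both shEV points in every subfamily except L1PA6.

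Pairs of lists were then compared by overlap. A gained peak is one of the first-named list with no peak of the other list overlapping it by 1 bp or more, and a lost peak is the converse. These terms describe presence in thresholded lists and not a measured difference in occupancy. When a young L1 peak did meet a peak of the other list, that peak carried a young L1 name in 97.7 to 98.8% of cases over the 4 pairs and another name in the rest.

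With the FoxA1 hairpin, R1881 over EtOH, more young L1 peaks were gained than lost. Of the shFoxA1 R1881 young L1 peaks 3086 were gained, 54.4% of them, against 44.5% of all peaks of that list. Of the shFoxA1 EtOH young L1 peaks 2056 were lost, 44.5% of them, against 37.5% of all peaks. Gained peaks were thus 60.02% (58.7 to 61.4) of the changed young L1 peaks, against 57.2% over all peaks, and 48.6% (47.2 to 49.98) over older L1 peaks. All 8 young subfamilies had more gained than lost peaks. L1PA6 had the highest share of the 7 subfamilies with over 100 changed peaks, 66.99% (63.1 to 70.7), with 414 gained and 204 lost, and L1PA2 the lowest, 55.8% (50.2 to 61.2). When both lists were cut to the length of the shortest of the 4, the young L1 share was 55.5% and that of all peaks 50.1%.

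The gained peaks of highest score in this pair were an L1PA6 peak in an intron at -18.6 kb from TEX264, a receptor gene of endoplasmic reticulum autophagy, with a score of 494, an L1PA8 peak in an intron, 20.5 kb from the start of IQCB1, with 269 and an L1PA6 peak near MIR10524 with 269. The lost peaks of highest score were an L1PA6 peak near MIR1302-8 with 284, an L1PA2 peak near SIMC1 with 235 and an L1PA4 peak 55.5 kb from the start of DISC1FP1 with 223. Gained peaks as a whole were weak. Their median score was 49 in the shFoxA1 R1881 list, where young L1 peaks shared with EtOH had a median of 74.

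With the empty vector, R1881 over EtOH, young L1 gains and losses were nearly equal. Gained young L1 peaks numbered 1920, or 53.1% of those in shEV R1881, against 45% of all peaks of that list. Lost ones numbered 1989, or 54.1% of those in shEV EtOH, against 42.6% of all peaks. Gained peaks were 49.1% (47.5 to 50.7) of the changed young L1 peaks, and 52.5% (51.8 to 53.1) over all peaks. Over older L1 peaks they were 50.2% (48.7 to 51.7). L1PA3 lay lowest of the subfamilies, at 46.1% (42.5 to 49.7), and L1PA7 lay at 53.2% (49.5 to 56.9). Cut to equal length, the young L1 share was 47.3% and that of all peaks 50%. This pair and the pair with the FoxA1 hairpin have no library in common, and the difference between their shares was not tested, since each rests on 1 library per group.

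The strongest gains in shEV R1881 were the TEX264 L1PA6 peak with a score of 728 (chr3:51652110-51652970), an L1PA4 peak at -26.2 kb from TUT7, which encodes a terminal uridylyltransferase, with 636, and an L1PA6 peak 13.8 kb from the start of SORD2P, a pseudogene of sorbitol dehydrogenase, with 592. The strongest losses were lower in rank. They were an L1PA4 peak 184 kb from the start of CDH2, the N-cadherin gene, with a score of 215 in shEV EtOH, an L1PA3 peak on chromosome 2 with 191 and an L1PA5 peak near LOC100133050 with 191.

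**Figure D4:**
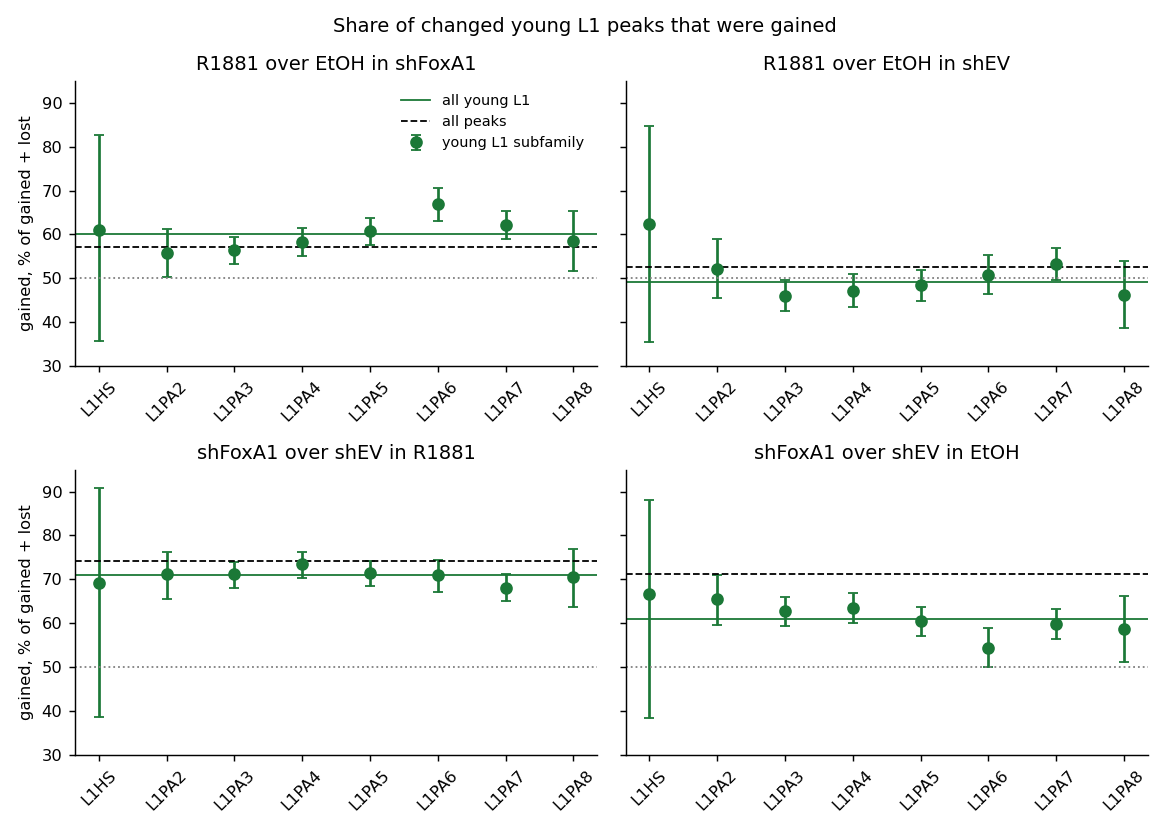
Gained peaks as a share of gained and lost young L1 peaks (vertical axis, %) by subfamily in each of the 4 pairs of lists, with 95% exact binomial intervals; the solid line is all young L1 peaks, the dashed line all peaks and the dotted line 50%. The young L1 line lies above the dashed line in R1881 over EtOH in shFoxA1 (60.02% against 57.2%) and below it in the other 3 pairs, most in shFoxA1 over shEV in EtOH (60.9% against 71.2%).

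Between hairpins in R1881, shFoxA1 over shEV, 3456 young L1 peaks were gained and 1413 were lost. The gains were 60.9% of the young L1 peaks in shFoxA1 R1881, against 52.8% of all its peaks, and the losses 39.1% of those in shEV R1881, against 27.9% of all its peaks. The gained share was 71.0% (69.7 to 72.3), and 74.2% over all peaks. Older L1 peaks lay lower, at 61.2% (59.7 to 62.6). The subfamilies with over 100 changed peaks spanned 68.1% in L1PA7 to 73.4% in L1PA4. Cut to equal length the young L1 share was 50.6%, and with 10000 top-ranked peaks per list 49.5%. The shares over all peaks, 50.5% and 50.2%, are held near 50% in these settings by the equal lengths.

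In EtOH, shFoxA1 over shEV, 2603 young L1 peaks were gained, 56.4% of those in shFoxA1 EtOH, against 49.2% of all its peaks. The 1668 lost peaks were 45.3% of those in shEV EtOH, against 28% of all its peaks. The gained share of young L1 peaks was 60.9% (59.5 to 62.4), below the 71.2% (70.6 to 71.8) of all peaks. Older L1 peaks also lay below all peaks, at 63.3% (61.8 to 64.7). Of the young subfamilies L1PA6 was lowest, at 54.4% (49.9 to 58.8). Cut to equal length the direction turned: gained peaks were then 42.6% (40.9 to 44.3) of the changed young L1 peaks, against 50.5% of all, and 37.3% (34.1 to 40.6), against 50.1%, among the 10000 highest. This pair and R1881 over EtOH in shFoxA1 share the shFoxA1 EtOH library, which had the lowest share of young L1 peaks of the 4 lists.

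The GC-rich young L1 peaks were gained with the FoxA1 hairpin more often than the rest. In R1881 their gained share was 86.7% (80.7 to 91.4), with 150 gained and 23 lost, against 70.4% (69.1 to 71.7) for the other young L1 peaks. In EtOH it was 83.1% (76.7 to 88.3), with 147 gained and 30 lost, against 59.99% (58.5 to 61.5). The values for all GC-rich peaks of the lists were 86.2% and 83.3%, so in this the GC-rich young L1 peaks lay close to other GC-rich peaks. Over all peaks with 50% G and C or less the gained share was 68.2% (67.6 to 68.9) in R1881 and 64.5% (63.8 to 65.3) in EtOH. Against these values the other young L1 peaks lay higher in R1881 and lower in EtOH. The lower young L1 share in R1881 than over all peaks was thus not seen at this GC content. With R1881 over EtOH the GC-rich young L1 peaks were near balance, with a gained share of 52.0% (45.3 to 58.6) in shFoxA1 and 50% (39.6 to 60.4) in shEV.

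The members gained between hairpins with the highest scores were, in R1881, an L1PA3 peak 27.7 kb from the start of FIP1L1, a gene of messenger RNA polyadenylation, with a score of 244, an L1PA3 peak near EMB with 232 and an L1PA2 peak near SLC39A8, a zinc transporter gene, with 197. In EtOH they were an L1PA7 peak near LINC01031 with 259, an L1PA2 peak near LOC101929577 with 200 and an L1PA2 peak near SCG2 with 188. Lost in R1881 were the TUT7 L1PA4 peak with 636, an L1PA7 peak near IL20RA with 226 and an L1PA8 peak near LOC101927314 with 191. The TUT7 peak of shEV R1881 met no peak in shEV EtOH or in shFoxA1 R1881. Its gain with R1881 and its loss with the hairpin thus rest on the same peak of 1 library. Lost in EtOH were an L1PA6 peak near MIR4275 with 180, an L1PA5 peak near COX18 with 180 and an L1PA4 peak near MIR4422 with 169.

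The share of young L1 peaks that met a peak of the other list was compared with that of other peaks in the same 20% band of score. This was done for the first-named list of each pair. The share of young L1 peaks was the lower in every band except the lowest of shFoxA1 EtOH, although in some bands the value for other peaks lay within its interval. In shFoxA1 R1881, among the 20% highest scores, 89.3% (86.5 to 91.6) of young L1 peaks met a peak of shFoxA1 EtOH, against 90.8% of the other peaks of that band. In the middle band the values were 42.0% (39.4 to 44.7) and 54.0%, and in the lowest band 21.4% (18.9 to 24.0) and 27.8%. For shEV R1881 against shEV EtOH the middle band gave 48.4% (45.1 to 51.7) for young L1 peaks and 52.0% for the others. In the lowest band of shFoxA1 EtOH, 21.8% (19.2 to 24.5) of young L1 peaks met a peak of shEV EtOH, against 17.1% of the others.

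Merged over the 4 lists, the peaks formed 61118 union regions, of which 9609 held at least 1 young L1 peak. A peak in all 4 lists was present in 1156 of these, or 12.03% (11.4 to 12.7), against 19% of all regions, 22.8% (22.02 to 23.6) of older L1 regions and 50.9% (48.5 to 53.4) of ERVK regions. Regions found in 1 list alone were 52.2% of the young L1 regions and 48.1% of all regions. L1PA6 had the highest share in all 4 lists of the 7 larger subfamilies, 14.7% (12.8 to 16.8), and L1PA2 the lowest, 10.4% (8.08 to 13.2). Every peak of the region carried a young L1 name in 9364 regions, and of these 1041 were in all 4 lists.

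Regions of 1 library numbered 2018 in shFoxA1 R1881 alone, 1310 in shFoxA1 EtOH alone, 804 in shEV R1881 alone and 886 in shEV EtOH alone. These were 21.0%, 13.6%, 8.37% and 9.22% of the young L1 regions, against 19.7%, 14.7%, 7.23% and 6.53% of all regions. Both R1881 lists and no other held 454 young L1 regions, or 4.72%, against 5.27% of all regions, and both EtOH lists and no other 317, or 3.30%, against 3.21%. Both shFoxA1 lists and no other held 633, or 6.59%, against 6.91% of all regions, and both shEV lists and no other 173, or 1.80%, against 0.967%. The patterns of both R1881, both EtOH and both shFoxA1 lists thus lay near their shares over all regions. The crossed patterns, which pair no treatment and no hairpin, held 362 regions in shFoxA1 R1881 with shEV EtOH, or 3.77%, against 2.12% of all regions, and 258 in shFoxA1 EtOH with shEV R1881, or 2.68%, against 1.79%.

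**Figure D5:**
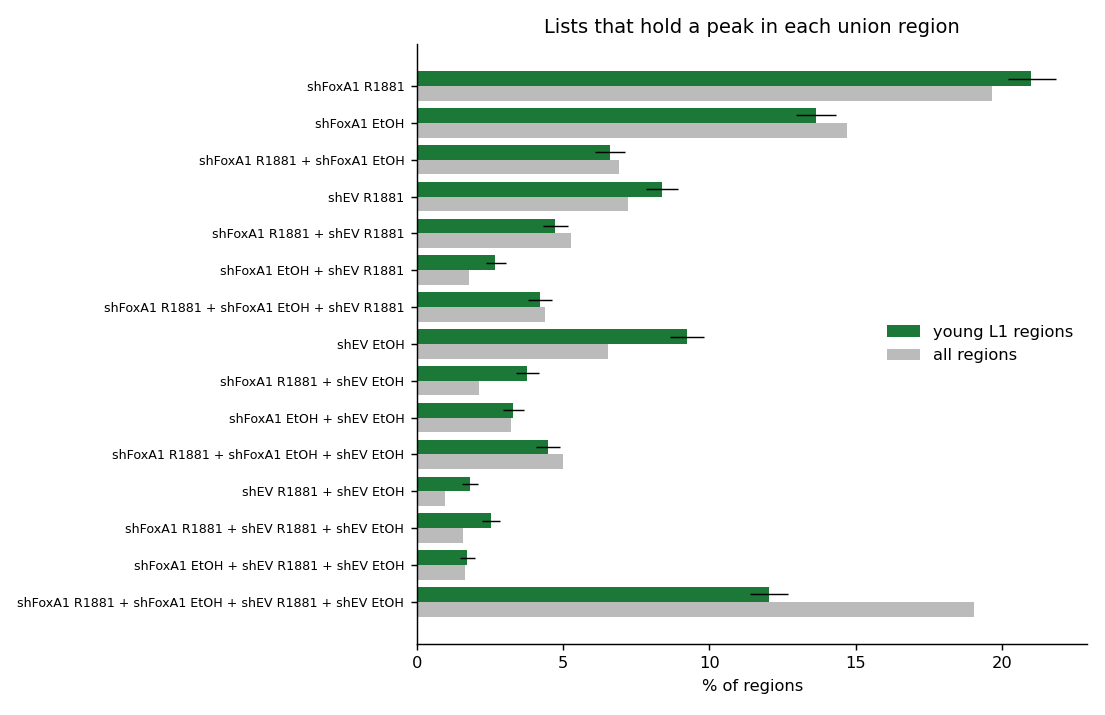
Share of union regions (horizontal axis, %) with a peak in each of the 15 combinations of lists, for young L1 regions with 95% exact binomial intervals and for all regions, which include them. The young L1 bar is shorter for regions in all 4 lists (12.03% against 19.04%) and longer for shFoxA1 R1881 alone (21.0% against 19.7%) and for both crossed pairs.

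The R1881 responses with the 2 hairpins rest on separate libraries, so their direction was compared region by region. Among 1391 young L1 regions that differed between R1881 and EtOH with both hairpins, 771, or 55.4% (52.8 to 58.1), went the same way, with an odds ratio of 1.54 (1.24 to 1.91). Among all other regions 71.4% (70.2 to 72.5) of 6186 did so, with an odds ratio of 5.82 (5.21 to 6.51). Older L1 regions gave 4.38 (3.54 to 5.41) and SVA regions 2.25. Among the young subfamilies other than L1HS the odds ratio ran from 1.05 in L1PA7 to 3.09 in L1PA8. Regions are not replicates, and the cause of the lower value for young L1 regions was not tested. The counts were repeated within bands of score rank, taken as the median percentile of a region's strongest peaks. Under the 40th percentile the odds ratio was 1.38 (1.04 to 1.85) for young L1 regions and 3.05 (2.63 to 3.54) for the others. From the 40th to the 60th it was 1.31 (0.901 to 1.90) and 6.71 (5.46 to 8.24), and above the 60th 3.61 (1.86 to 7.03) and 36.3 (25.9 to 50.9).

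Named regions show what these patterns look like. In both R1881 lists alone, the TEX264 L1PA6 peak had a score of 494 in shFoxA1 R1881 and 728 in shEV R1881, and the SORD2P L1PA6 peak 269 and 592. The LINC02149 L1PA6 peak had 257 in shFoxA1 R1881 and 202 in shEV R1881, and an intergenic L1PA7 peak whose nearest gene, C1QTNF3, starts about 200 kb away, had 164 and 288. An L1PA7 region near LOC101929721 had 232 and 214, but its shFoxA1 R1881 peak was centred in an Alu element. The 3 highest of these 5 regions were L1PA6.

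In both EtOH lists alone, the CDH2 L1PA4 peak had a score of 155 in shFoxA1 EtOH and 215 in shEV EtOH. An L1PA2 peak 23.9 kb from the start of KIF16B, a kinesin gene, had 155 and 169, an L1PA3 peak near LINC00587 134 and 158, and an L1PA6 peak near ACSS3 134 and 115. An L1PA3 region near PPP2R3A had 211 and 136, with its shEV EtOH peak centred in the older element L1PB. These regions stood lower in their lists than the TEX264 and SORD2P peaks.

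In both shFoxA1 lists alone, the SLC39A8 L1PA2 peak had a score of 197 in shFoxA1 R1881 and 166 in shFoxA1 EtOH, and the EMB L1PA3 peak 232 and 134. An L1PA4 peak near LOC107986794 had 164 and 166, an L1PA6 peak near ASB7 153 and 123, and an L1PA2 region at -2.94 kb from the start of GAGE1, of a cancer-testis antigen family of near-identical copies, 132 and 177, although its shFoxA1 EtOH peak was centred outside the element. In both shEV lists alone, the COX18 L1PA5 peak had 85 in shEV R1881 and 180 in shEV EtOH. The other 4 regions of that pattern, near PLCH1-AS2, MEAT6, CCDC66 and the autophagy gene AMBRA1, had scores of 67 to 157.

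Regions in all 4 lists with a young L1 name each time include an L1PA2 region near IZUMO1R (chr11:94233659-94239385), with scores of 624 in shFoxA1 R1881, 484 in shFoxA1 EtOH, 462 in shEV R1881 and 777 in shEV EtOH. An L1PA6 region near MIR3668 (chr6:140118965-140120621) had 760, 797, 712 and 520 in that order, and an L1PA8 region near LOC286178 had 551, 401, 448 and 276. The lowest of these 12 values, in the L1PA8 region in shEV EtOH, was still at percentile 92.2 of its list. For the other subfamilies the top region owed its rank in at least 1 list to a peak of another name. Near PDE4D the strongest peak of the L1PA3 region was centred in MSTA-int, a retroviral element, in all 4 lists. At AKR1C8P the L1PA4 name held in shFoxA1 EtOH alone, with LTR25-int in the other lists. Near MIR365B the strongest peaks of the L1PA5 region were centred in AluY or L1MEf. The L1HS region near LINC02064 kept its L1HS name in the EtOH lists, with scores of 155 in shFoxA1 EtOH and 147 in shEV EtOH, and had no repeat name in the R1881 lists.

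Gene lists were set beside the young L1 peaks. A gene whose TSS lay within 50 kb of such a peak but that was not the nearest gene was left out. Counted were the genes given as nearest to a young L1 peak, with their TSS within 50 kb of it. Over all 20037 protein-coding genes this held for 6.64% in shFoxA1 R1881, 5.54% in shFoxA1 EtOH, 4.57% in shEV R1881, 4.54% in shEV EtOH and 9.79% in any list. Of 35 androgen-induced genes 4 had a young L1 peak in shFoxA1 R1881, 4 in shFoxA1 EtOH, 3 in shEV R1881 and 2 in shEV EtOH, and 6 in any list. AMD1, which encodes an enzyme of polyamine synthesis, had L1PA5 peaks about 30 to 36 kb away in all 4 lists, the strongest with scores of 209, 144, 125 and 125 in the same order. SORD, for sorbitol dehydrogenase, had young L1 peaks at several sites in shFoxA1 R1881. Its only one lay at 31.8 kb in shFoxA1 EtOH and at -6.81 kb in shEV R1881. EAF2 had young L1 peaks in both shFoxA1 lists, ZBTB10 in both shEV lists, NDRG1 in shFoxA1 R1881 and HERC3 in shFoxA1 EtOH.

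Of 12 androgen-repressed genes, 6 had a young L1 peak in shFoxA1 R1881, 6 in shFoxA1 EtOH, 6 in shEV R1881 and 7 in shEV EtOH, and 9 in any list. This list was drawn up with earlier results of these data known, and 4 of the 9 genes, UGT2B17, UGT2B15, UGT2B11 and UGT2B28, lie in the same gene cluster on chromosome 4 and encode glucuronidating enzymes, some of which inactivate androgens. The L1PA8 peak 36.7 kb from UGT2B17 had a score of 197 in shFoxA1 R1881, and the overlapping peaks had 166 in shFoxA1 EtOH, 157 in shEV R1881 and 203 in shEV EtOH. UGT2B15 and UGT2B11 had young L1 peaks in all 4 lists as well, and UGT2B28 in both R1881 lists. Among the others, MET, the hepatocyte growth factor receptor gene, had an L1PA2 peak in shFoxA1 R1881, shEV R1881 and shEV EtOH with scores of 65, 76 and 50. The peaks of CCN3, DDC, OPRK1 and BCHE were each called in 1 to 3 lists.

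The counts for genes of the mTOR pathway and of L1 control were small and lay near the shares over all coding genes. Of 40 mTOR pathway genes 2 did in shFoxA1 R1881, 1 in shFoxA1 EtOH, 1 in shEV R1881 and 2 in shEV EtOH. They were SESN1, which encodes an inhibitor of mTOR complex 1, and RICTOR, a defining subunit of mTOR complex 2. SESN1 had an L1PA7 peak in every list, but not at the same site. Its only one lay at -15.9 kb in shFoxA1 R1881 and at 32.6 kb in shEV R1881. The RICTOR L1PA4 peak had a score of 83 in shFoxA1 R1881 and 50 in shEV EtOH. Of 28 genes of L1 silencing and restriction, 2 had a young L1 peak in shFoxA1 R1881, none in shFoxA1 EtOH, 1 in shEV R1881 and 1 in shEV EtOH. These were MPHOSPH8, a HUSH complex subunit, and ZNF93, a KRAB zinc-finger protein that binds L1PA elements. None of 11 genes for factors that bind the L1 promoter, and not TTC28, the host of a known active L1HS, had one in any list.

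The genes nearest to most young L1 regions were LOC102723769 with 23 regions, DLG2 with 21, GRIK2 with 20, SLC16A7 with 18 and CCSER1 with 17, the last tied with LUZP2 and NR2F1-AS1. For DLG2, a postsynaptic scaffold gene of 2173 kb, all 21 regions were intronic, and 3 of them were in all 4 lists. GRIK2, a kainate receptor subunit gene, had 4 in introns and 16 between genes, with 6 in all 4 lists. At DLG2 the regions had a peak in 11 cases in shFoxA1 R1881, 9 in shFoxA1 EtOH, 7 in shEV R1881 and 9 in shEV EtOH, at LUZP2 in 3, 14, 2 and 6 cases and at NR2F1-AS1 in 11, 6, 7 and 4 cases. GRIK2 had 13, 17, 10 and 11 cases and SLC16A7 8, 13, 6 and 10 in the same order of lists. With each hairpin the LUZP2, GRIK2 and SLC16A7 counts were lower in R1881 than in EtOH, and the NR2F1-AS1 count was higher. Over all young L1 peaks the lists held 5671, 4616, 3614 and 3679. These gene counts are small and rest on 1 library per group, and a response to R1881 was not tested.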

How the data were processed

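The peak lists of 4 mTOR ChIP libraries of LNCaP cells, 1 per group, were used; reads were paired-end, 150 bp. The submitters' processing notes name build hg38 and, in no stated order, deepTools 3.5.0, MACS2, BWA 0.7.12, HOMER 4.11.1, Trimmomatic 0.36 and Picard 2.0.1. Per the file headers the lists are HOMER annotations of peaks called per library. The sources used here do not give the caller's control and threshold or the treatment of duplicate and multiply mapped reads. The deposited score is the authors' value, of unstated definition, and ranked peaks within a list only. The deposited CpG and GC fractions, from 0 to 1, are printed as percentages. Coordinates count from 1.

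Computed here, with Python 3.11.15, pandas 2.3.3 and scipy 1.17.1, were overlaps of at least 1 bp, union regions, exact (Clopper-Pearson) 95% intervals and odds ratios with 95% intervals on the log scale. The overlap and counting steps were tested on simulated data. No p-value is given, since no group has a replicate. The share of all features called is given with the counts of gained and lost members, of regions by pattern and of genes. Alternatives were an overlap of 50%, promoter peaks as members, no L1PA8, the 10000 highest peaks, equal list lengths and chromosomes 1 to 22.

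Named peaks were the 3 of highest score per list and per direction of each pair, the top region in all 4 lists per subfamily, 5 regions for each pattern of both lists of a treatment or hairpin, members of 6 gene lists within 50 kb and the 5 genes nearest to most regions, under the gene the files give as nearest. The members and lists were chosen with earlier results of these data known. Gene symbols were matched to a RefSeq table of GRCh38.p14.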

Additional observations from a re-analysis of the deposited data

Results flagged for a closer look

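With R1881 over EtOH, the gained share of changed young L1 peaks lay on opposite sides of 50% with the 2 hairpins, at 60% in shFoxA1 and 49.1% in shEV, against 57.2% and 52.5% over all peaks. The same held for L1PA3 (56.4% in shFoxA1 and 46.1% in shEV), L1PA4 (58.3% and 47.2%), L1PA5 (60.7% and 48.4%) and L1PA8 (58.6% and 46.2%). In shEV the intervals of young L1 as a whole (47.5 to 50.7), L1PA4 (43.4 to 50.9), L1PA5 (44.9 to 52.0) and L1PA8 (38.6 to 54.0) include 50%, and that of L1PA3 (42.5 to 49.7) does not. L1HS, L1PA2, L1PA6 and L1PA7 lay above 50% with both hairpins. The difference was not tested, because each share compares 1 library with 1 library. List length moves with it: the lists held 39570 peaks (shFoxA1 R1881), 35121 (shFoxA1 EtOH), 26074 (shEV R1881) and 24948 (shEV EtOH). With all lists cut to equal length the shares were 55.5% in shFoxA1 and 47.3% in shEV.

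Peaks outside chromosomes 1 to 22, X and Y entered no comparison. Young L1 names occurred there in 24 of 538 peaks of shFoxA1 R1881 and 35 of 566 of shFoxA1 EtOH. In shEV R1881 they occurred in 29 of 542 such peaks and in shEV EtOH in 23 of 556.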

How the results depend on the processing

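No paired analysis was possible because each group had 1 library and so no replicates to block, and for the same reason no replicate could be left out. An overlap of 50% (5 results) and chromosomes 1 to 22 (13) left each recomputed value within its interval. Admitting promoter peaks as members could change no value, since no promoter peak carried a young L1 name. Without L1PA8 the share of the list was 13.8% in shFoxA1 R1881, 12.6% in shFoxA1 EtOH, 13.3% in shEV R1881 and 14.1% in shEV EtOH, and the other 9 results kept within their intervals. Among the 10000 highest-scoring peaks these shares were 8.87%, 7.85%, 8.92% and 10.02% in that order, and 15.98% of young L1 regions were in all 4 lists. There the gained share was 56.3% for R1881 over EtOH in shFoxA1 and 44.1% in shEV, and 49.5% for shFoxA1 over shEV in R1881 and 37.3% in EtOH, both turned below 50%. Top ranks were not recomputed in that setting. With equal list lengths of 24948 peaks, the share among the 20% highest was 8.41% in shFoxA1 R1881 and 7.38% in shFoxA1 EtOH, the shFoxA1 EtOH list share 12.7% and the share of regions in all 4 lists 13.4%. The gained shares were then 55.5% for R1881 over EtOH in shFoxA1 and 47.3% in shEV, 50.6% for shFoxA1 over shEV in R1881 and 42.6%, turned, in EtOH. Equal lengths hold the share over all peaks at 50 to 50.5% by construction, and the cause of the turned young L1 shares was not tested. With regions whose peaks all carry a young L1 name, chosen after seeing the data, 11.1% were in all 4 lists. Unknown depth, 1 library per group and the uncertain placement of reads among similar L1 copies limit every value.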
